A study of Homo sapiens with 24 samples.

Results

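The genes described here are 10 genes of the integrated stress response that act with or downstream of the transcription factor ATF4, namely ATF4, ATF3, DDIT3, TRIB3, SESN2, DDIT4, CHAC1, SLC7A11, ASNS and PSAT1. They were chosen by name as genes of this pathway, with earlier results of these data known, and all 10 were found among the 27431 gene symbols of 3 genome-wide expression tables, where they are spread over 34 RefSeq transcript entries. The tables come from an RNA sequencing study of HER2-positive human breast carcinoma lines after knockdown of TFAP2C, which encodes the transcription factor AP-2gamma. The study sought the targets of that factor that underlie growth and invasion. Of the study's 24 samples in 8 groups of 3, the 6 groups used here form 3 pairs. SKBR3 cells received TFAP2C siRNA (group siAP2C) or the non-targeting siRNA #2 (siNT) with Lipofectamine RNAiMAX, and HCC1954 cells received the same 2 reagents, with 72 to 96 h of incubation in both lines. The third pair consists of HCC1954 clones made with a lentiviral shRNA against TFAP2C (shAP2C) and with a negative control shRNA (shNT). They are clonal, so traits of a clone and the effect of the shRNA cannot be told apart. How many clones were used is not given in the labels. The submitters state that they did not authenticate the lines.

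In the integrated stress response, kinases that sense amino acid shortage, unfolded protein in the endoplasmic reticulum, haem shortage or viral RNA phosphorylate the translation factor eIF2. General translation then drops while the ATF4 message, whose upstream reading frames otherwise hold it back, is translated more. ATF4 protein, paired with C/EBP family proteins, switches on genes for amino acid uptake and synthesis, glutathione handling and, under lasting stress, cell death. Much of ATF4 control is at translation, which RNA levels do not show.

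Values are FPKM (fragments counted per length of transcript and per depth of the library) from the authors' deposited tables, in which the 3 samples of a group are pooled into 1 value, so no level has a replicate spread and no sample's depth is known. Whether the 3 samples of a group were separate cultures is not stated, so the deposited p-values may measure technical spread alone. A gene's level is the sum over its transcript entries. A change is that of its main transcript, the entry of highest average FPKM across the 6 groups. In the pathway lists below, FPKM of a knockdown and its control are of the main transcript, unless a sum or another transcript is named. A gene is said to rise or fall only where the q-value in the authors' deposited table was under 0.05, and "called" means the same. Errors are standard errors (SE) of the log2 ratio of knockdown over control, computed as that ratio over the deposited test statistic. The columns of the table taken here as HCC1954 siRNA name the siRNAs and no line. The line was taken from the name of the deposited file and is the remaining siRNA line of the labels. A table of 68 selected genes for a further line, HCC1569, holds 0 of the 10 genes.

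TFAP2C itself was lower in all 3 knockdowns in the authors' deposited tables. It had 53.9 FPKM in SKBR3 siAP2C cells against 157 FPKM in siNT cells, 22.0 against 92.4 FPKM in HCC1954 siAP2C and siNT cells, and 3.46 against 81.0 FPKM in HCC1954 shAP2C and shNT cells. Of 6 epithelial markers, 5 or 6 reached 1 FPKM in every group. The 6 markers summed to 1949 FPKM in HCC1954 shAP2C cells against 3163 FPKM in shNT cells, and to 5228 FPKM or more in the siRNA groups. They did not move as one between the clones. ERBB2 was at 20.8 FPKM in shAP2C cells against 1525 FPKM in shNT cells and CDH1 at 20.7 against 149 FPKM, while KRT19 was at 634 against 19.9 FPKM and EPCAM at 161 against 112 FPKM. Immune, endothelial and fibroblast markers summed to at most 38.8, 27.5 and 1.96 FPKM in any group. Between the levels of 10207 genes, Spearman's rho was 0.784 for HCC1954 shAP2C with shNT cells, close to the 0.775 of SKBR3 siNT with HCC1954 shNT cells, while siAP2C and siNT cells gave 0.965 in SKBR3 and 0.989 in HCC1954. The part of this wide shift in the shRNA results below was not tested.

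ATF4 sits at chr22:39915700-39918688 on the plus strand of GRCh37, CHAC1 at chr15:41245160-41248710 on the plus strand, ATF3 at chr1:212738676-212794119 on the plus strand and ASNS at chr7:97480989-97501854 on the minus strand. Their promoters are printed because they are the promoters of the set in which a search found an ATF4-type or an AP-2-type motif. Each runs from 250 bases before to 50 bases after a transcription start in RefSeq (build GRCh38.p14), 5′ to 3′ on the gene's strand. Capitals mark the core of the C/EBP-ATF response element (TGATGNAA, on either strand) and the AP-2 palindrome (GCCNNNGGC).
ATF4 promoter, chr22:39520309-39520608, plus strand: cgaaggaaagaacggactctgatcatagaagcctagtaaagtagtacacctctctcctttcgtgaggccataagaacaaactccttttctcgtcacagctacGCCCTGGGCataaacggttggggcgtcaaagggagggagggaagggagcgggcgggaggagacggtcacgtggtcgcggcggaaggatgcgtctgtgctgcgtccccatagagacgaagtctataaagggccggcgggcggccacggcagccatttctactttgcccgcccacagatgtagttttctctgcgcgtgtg
ATF3 promoter, chr1:212565157-212565456, plus strand: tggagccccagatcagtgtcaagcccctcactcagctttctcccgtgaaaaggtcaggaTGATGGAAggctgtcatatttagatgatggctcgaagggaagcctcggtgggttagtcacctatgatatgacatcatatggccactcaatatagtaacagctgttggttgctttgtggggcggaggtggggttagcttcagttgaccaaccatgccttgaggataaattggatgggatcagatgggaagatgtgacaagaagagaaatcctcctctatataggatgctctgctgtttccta
CHAC1 promoter, chr15:40953221-40953520, plus strand: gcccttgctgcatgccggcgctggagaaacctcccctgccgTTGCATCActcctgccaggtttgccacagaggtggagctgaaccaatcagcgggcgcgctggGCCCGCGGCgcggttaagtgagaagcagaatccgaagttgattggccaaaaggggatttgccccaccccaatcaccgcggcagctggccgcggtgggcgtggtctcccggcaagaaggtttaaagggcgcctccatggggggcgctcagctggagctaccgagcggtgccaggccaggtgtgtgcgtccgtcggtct
ASNS promoter, chr7:97872359-97872658, minus strand: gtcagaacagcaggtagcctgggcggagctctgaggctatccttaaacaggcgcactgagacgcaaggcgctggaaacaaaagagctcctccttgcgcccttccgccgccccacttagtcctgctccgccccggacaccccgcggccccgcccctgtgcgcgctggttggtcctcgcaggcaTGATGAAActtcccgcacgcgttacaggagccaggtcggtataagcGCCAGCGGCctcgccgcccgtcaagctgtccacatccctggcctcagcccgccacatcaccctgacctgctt

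Of the 10 genes, 9 have promoters in the RefSeq table used, and SLC7A11 is named only. ASNS, the enzyme that makes asparagine, carries the C/EBP-ATF core TGATGAAA starting 68 bases before its start. ATF3 carries TGATGGAA starting 191 bases before, and CHAC1 carries TTGCATCA, the core on the other strand, starting 209 bases before. That makes 3 of 9 genes with the core, which is found in 3.62% of all 35116 promoters of that table. The AP-2 palindrome GCCNNNGGC was found in ASNS (22 bases before the start), CHAC1 (147 bases) and ATF4 (148 bases), 3 of 9 genes against 23.2% of all promoters. The cyclic AMP response element TGACGTCA was found in none of the 9 and in 1.85% of promoters. The antioxidant response element core TGACNNNGC was found in TRIB3, on the other strand and after the start in the first of its windows, and in 13.3% of promoters. A gene was counted where any of its promoter windows matched, and some of the 9 have several. ATF3 and ASNS each have another window, not printed, with neither the C/EBP-ATF core nor the AP-2 palindrome. Which start the cells used was not examined. The percentages are of single windows, so counts and percentages differ in unit. Both strands were searched, the palindromes read alike on each, and no marked motif overlaps another. A match of letters is a description and not a bound site.

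**Figure D1:**
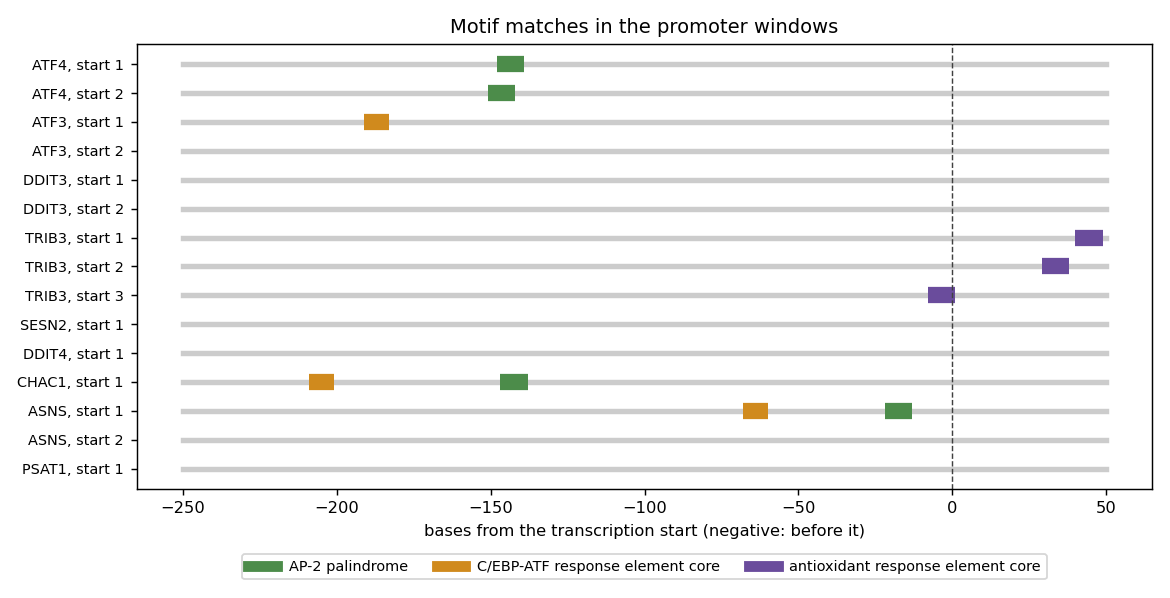
Positions of motif matches (coloured blocks) in the promoter windows of 9 genes, in bases from the transcription start (horizontal axis), with 1 line per annotated start. The C/EBP-ATF core appears in ATF3, CHAC1 and ASNS, the AP-2 palindrome in ATF4, CHAC1 and ASNS, and the antioxidant element core in TRIB3.

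In SKBR3 cells 9 of the 10 genes rose after TFAP2C siRNA and 0 fell. The exception was DDIT3, whose main transcript missed the threshold. The background was 12.3% of 9903 tested genes called higher and 21.0% called lower in the authors' deposited table. The median log2 ratio of the 10 main transcripts was 0.92, against -0.10 for all tested genes, all 10 ratios were above 0, and at an unadjusted p under 0.05 all 10 were higher and 0 lower in the authors' Cuffdiff test. In HCC1954 cells the same siRNA gave 1 gene that rose, DDIT4, and 0 that fell, with 2.31% of 10773 genes called higher and 0.965% called lower. There the median log2 ratio of the 10 was 0.16, against -0.0039 for all, and at an unadjusted p under 0.05 the authors' Cuffdiff test had 4 of the 10 higher (DDIT4, CHAC1, SLC7A11 and SESN2) and 0 lower. The share of all tested genes at that unadjusted threshold was not counted, so these counts and those of the lists below have no background. In the HCC1954 shRNA clones 6 of 9 tested genes rose and 1, PSAT1, fell. In that comparison 36.3% of 9564 genes were called higher and 39.2% lower, so that most genes of the table were called. The median log2 ratio of the 9 was 1.15, against -0.034 for all. In bulk RNA, a change in every cell and a change in the share of cells that express a gene cannot be told apart.

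**Figure D2:**
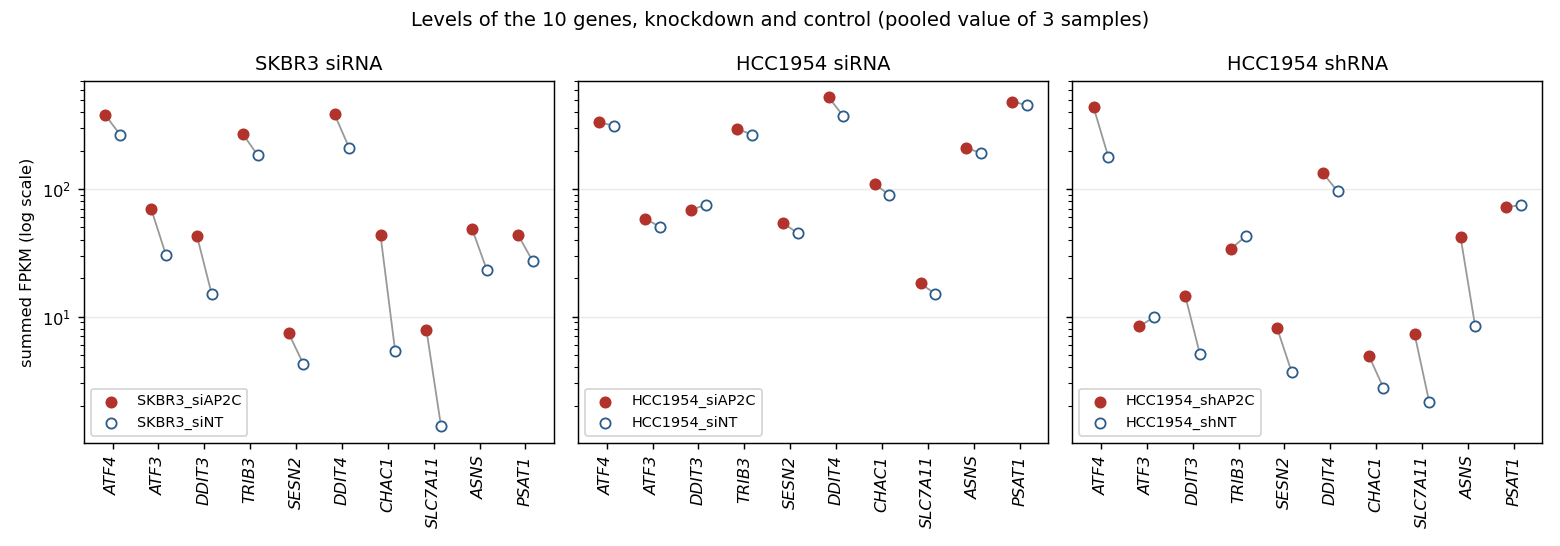
Summed FPKM (log scale) of the 10 genes in each comparison, with knockdown as filled red points and control as open blue points, each the authors' pooled value of 3 samples. In SKBR3 every knockdown point lies above its control, in HCC1954 siRNA the 2 points of a gene lie close together at high levels, and in HCC1954 shRNA ATF3, TRIB3 and PSAT1 lie lower in the knockdown.

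Among the transcription factors, ATF4, the central activator, rose in SKBR3 and in the shRNA clones. Its summed level was 380 FPKM in SKBR3 siAP2C cells against 267 FPKM in siNT cells, 336 against 311 FPKM in HCC1954 siAP2C and siNT cells, and 438 against 180 FPKM in HCC1954 shAP2C and shNT cells. The main transcript, which held 95.9% or more of the summed signal in every group, changed by a log2 ratio of 0.51 ± 0.18 (SE) in SKBR3 (q = 0.000441 in the authors' deposited table) and 1.30 ± 0.12 in the shRNA clones (q = 0.000121). In HCC1954 siRNA its log2 ratio was 0.11 ± 0.30 (q = 0.821). Those small q-values are the lowest the tables can hold, since the smallest deposited p was 5e-05. A second ATF4 transcript rose in the shRNA clones as well, with 10.6 FPKM in shAP2C cells against 6.67 FPKM in shNT cells (q = 0.0101 in the authors' deposited table). Another 4 annotated genes are ATF4 pseudogenes by name, and how reads were shared with them is not stated.

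ATF3, a stress-induced factor of the same bZIP class that is itself switched on by ATF4, rose in SKBR3 alone of the 3 comparisons. It summed to 70.0 FPKM in SKBR3 siAP2C cells against 30.6 FPKM in siNT cells, 58.7 against 50.4 FPKM in HCC1954 siAP2C and siNT cells, and 8.39 against 9.93 FPKM in shAP2C and shNT cells. The SKBR3 log2 ratio was 1.34 ± 0.28 (SE; q = 0.000441 in the authors' deposited table). The ratios were 0.19 ± 0.38 (q = 0.746) in HCC1954 siRNA and -0.33 ± 0.98 (q = 0.264) in shRNA. The differences of ATF3 between comparisons did not pass the adjusted threshold with the SE used here. Both of its contrasts with SKBR3 passed with the SE taken from the deposited p. The outcome depends on the SE, so the ATF3 rise is not shown to be particular to SKBR3. A second ATF3 transcript also rose in SKBR3, with 7.09 against 3.53 FPKM in siAP2C and siNT cells (q = 0.0437 in the authors' deposited table).

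DDIT3 encodes CHOP, the factor of the pathway linked to cell death, and had the largest SE of the tested genes of the set in each comparison. Its summed level was 42.7 FPKM in SKBR3 siAP2C cells against 15.0 FPKM in siNT cells, 68.8 against 75.2 FPKM in HCC1954 siAP2C and siNT cells, and 14.5 against 5.06 FPKM in shAP2C and shNT cells. Its main transcript held 41% to 49% of that sum in SKBR3, 91% to 92% in HCC1954 siRNA and 22% to 35% in the clones, so the signal was split over up to 6 entries. The main transcript was not called in SKBR3 (log2 ratio 1.77 ± 1.25, q = 0.0857 in the authors' deposited table). It rose in the clones, with 5.14 FPKM in shAP2C cells against 1.10 FPKM in shNT cells (q = 0.0204), although the SE implied by the deposited statistic is 3.29 on a log2 ratio of 2.23. In HCC1954 siRNA the log2 ratio was -0.11 ± 0.93 (q = 0.963). DDIT3 lies at chr12:57910371-57915520 on the minus strand of GRCh37 and overlaps MARS1 and MBD6 on the plus strand, and use of strand in the counting is not stated. MARS1, a tRNA synthetase gene, was itself at 39.0 FPKM in SKBR3 siAP2C against 30.8 FPKM in siNT cells and at 47.8 against 20.9 FPKM in shAP2C and shNT cells. Reads of the 2 genes cannot be told apart where they overlap.

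TRIB3 (chr20:343479-378203, plus strand, GRCh37), a pseudokinase that ATF4 and CHOP induce and that in turn restrains them, rose in SKBR3 and was not called higher in the others. It summed to 269 FPKM in SKBR3 siAP2C cells against 185 FPKM in siNT cells, 297 against 267 FPKM in HCC1954 siAP2C and siNT cells, and 34.1 against 42.8 FPKM in shAP2C and shNT cells. The main transcript gave log2 ratios of 0.61 ± 0.24 (SE; q = 0.000441 in the authors' deposited table) in SKBR3, 0.12 ± 0.31 (q = 0.802) in HCC1954 siRNA and -0.23 ± 0.52 (q = 0.164) in shRNA. Its second transcript went in opposite directions in SKBR3 and in the clones. It rose in SKBR3, with 91.0 against 67.9 FPKM in siAP2C and siNT cells (q = 0.0172), and fell in the clones, with 11.1 against 16.7 FPKM in shAP2C and shNT cells (q = 0.0170 in the authors' deposited table).

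DDIT4 (chr10:74033678-74035794, plus strand, GRCh37) and SESN2 (chr1:28586029-28609002, plus strand) encode stress proteins that restrain the growth kinase mTORC1, and DDIT4 was the gene called higher in all 3 comparisons. DDIT4, present as 1 entry, had 384 FPKM in SKBR3 siAP2C cells against 209 FPKM in siNT cells (q = 0.000441), 522 against 372 FPKM in HCC1954 siAP2C and siNT cells (q = 0.0342), and 134 against 95.7 FPKM in shAP2C and shNT cells (q = 0.000121 in the authors' deposited tables). These are log2 ratios of 0.88 ± 0.18, 0.49 ± 0.33 and 0.48 ± 0.13 (SE), and the HCC1954 siRNA call is lost at a q threshold of 0.01. SESN2, also 1 entry, rose in SKBR3, with 7.38 against 4.24 FPKM in siAP2C and siNT cells (q = 0.000441), and in the clones, with 8.16 against 3.67 FPKM in shAP2C and shNT cells (q = 0.000121 in the authors' deposited tables). In HCC1954 siRNA it was at 54.3 FPKM in siAP2C cells against 45.2 FPKM in siNT cells (q = 0.471 in the authors' deposited table). SESN2 was thus at a higher level in HCC1954 siRNA cells than in either SKBR3 group or either group of clones, across tables that were normalized separately.

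CHAC1, which breaks down glutathione, had the largest ratio of the 10 in SKBR3. It summed to 43.5 FPKM in SKBR3 siAP2C cells against 5.34 FPKM in siNT cells, and its main transcript rose 8.37-fold (log2 ratio 3.06 ± 0.33 SE, q = 0.000441 in the authors' deposited table). In HCC1954 it was at 110 FPKM in siAP2C cells against 89.6 FPKM in siNT cells (log2 ratio 0.30 ± 0.30, q = 0.300), so that control HCC1954 cells held more than SKBR3 knockdown cells, across separately normalized tables. In the clones it was low, with 4.95 FPKM in shAP2C cells against 2.76 FPKM in shNT cells, and the deposited table holds no test for it. The rise in SKBR3 exceeded that in HCC1954 siRNA by 2.76 log2 units (95% interval 1.90 to 3.63). This difference passed a z test on the deposited statistics, adjusted over 8907 genes, in which 0.505% of genes differed.

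SLC7A11 (chr4:139085251-139163503, minus strand, GRCh37) encodes the cystine importer xCT, which supplies cysteine for glutathione and is also controlled by the antioxidant factor NRF2. It had 7.92 FPKM in SKBR3 siAP2C cells against 1.38 FPKM in siNT cells, 18.2 against 15.1 FPKM in HCC1954 siAP2C and siNT cells, and 7.25 against 2.12 FPKM in shAP2C and shNT cells. It rose 5.74-fold in SKBR3 (log2 ratio 2.52 ± 0.27 SE, q = 0.000441) and 3.42-fold in the clones (1.77 ± 0.26, q = 0.000121), and was not called in HCC1954 siRNA (0.28 ± 0.30, q = 0.402 in the authors' deposited tables). SLC7A11 differed from its HCC1954 siRNA response in both other comparisons. The SKBR3 response was larger by 2.24 log2 units (95% interval 1.46 to 3.03) and the shRNA response by 1.50 (0.72 to 2.27), both past the adjusted threshold. The shRNA and SKBR3 responses differed by -0.75 log2 units (interval -1.49 to -0.01), which did not pass after adjustment. SLC7A11 overlaps its antisense gene SLC7A11-AS1, whose reads cannot be told apart from its own where strand is not stated.

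The enzymes ASNS and PSAT1 make asparagine and, in the serine pathway, phosphoserine. ASNS summed to 48.3 FPKM in SKBR3 siAP2C cells against 23.1 FPKM in siNT cells, 210 against 192 FPKM in HCC1954 siAP2C and siNT cells, and 42.2 against 8.38 FPKM in shAP2C and shNT cells. It rose in SKBR3 (log2 ratio 0.96 ± 0.28 SE, q = 0.000441) and in the clones (2.69 ± 0.85, q = 0.000121), where it had the largest ratio of the tested genes of the set, and was not called in HCC1954 siRNA (0.13 ± 0.35, q = 0.824 in the authors' deposited tables). The shRNA response exceeded that of HCC1954 siRNA by 2.56 log2 units (95% interval 0.76 to 4.36), which passed the adjusted threshold. A second ASNS transcript rose in SKBR3 too, with 6.30 against 1.70 FPKM in siAP2C and siNT cells (q = 0.00153 in the authors' deposited table). Pseudogenes by name number 5 for ASNS and 4 for PSAT1, and read sharing with them is not stated.

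PSAT1 (chr9:80912041-80945009, plus strand, GRCh37) rose in SKBR3 and fell in the clones. It summed to 43.6 FPKM in SKBR3 siAP2C cells against 27.1 FPKM in siNT cells, 484 against 455 FPKM in HCC1954 siAP2C and siNT cells, and 72.1 against 75.0 FPKM in shAP2C and shNT cells. The main transcript had log2 ratios of 0.67 ± 0.22 (SE; q = 0.000441) in SKBR3, -0.04 ± 0.55 (q = 0.977) in HCC1954 siRNA and -0.14 ± 0.20 (q = 0.0327) in the clones, in the authors' deposited tables. The shRNA fall is small, and the second PSAT1 transcript rose in the same clones, with 6.33 FPKM in shAP2C cells against 2.33 FPKM in shNT cells (q = 0.0407 in the authors' deposited table). The shRNA response of the main transcript was below that of SKBR3 by a log2 difference of -0.81 (95% interval -1.40 to -0.23), which passed the adjusted threshold.

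**Figure D3:**
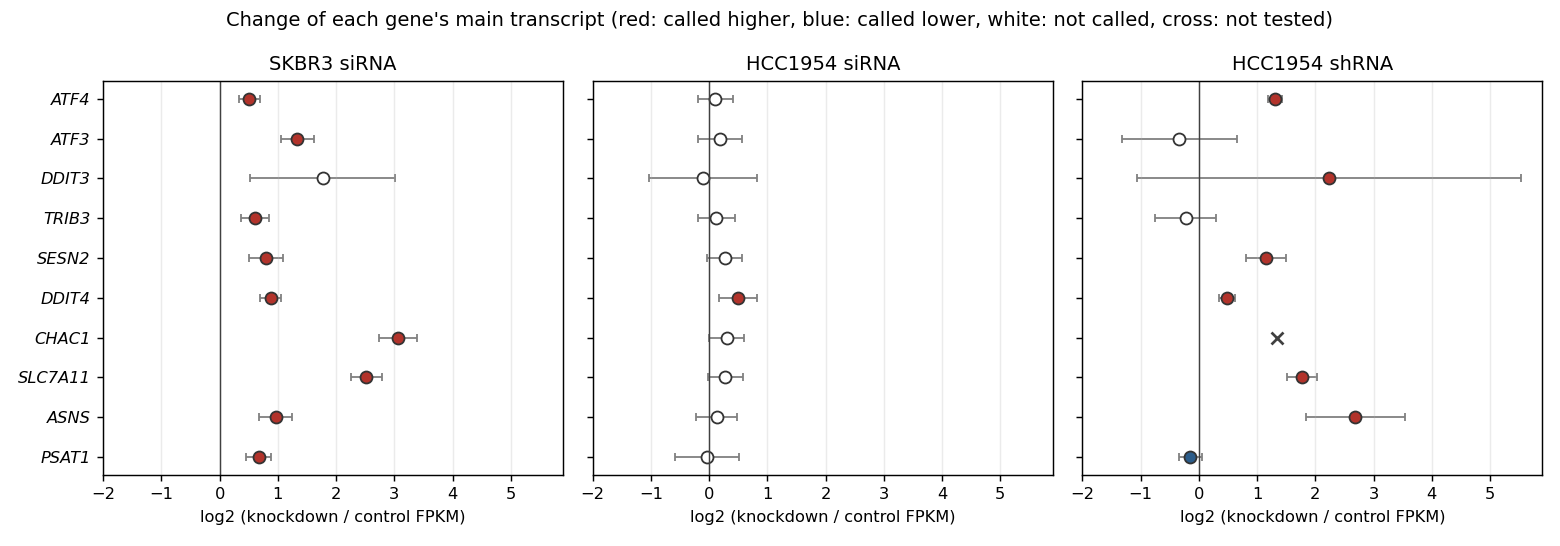
Log2 ratio of knockdown over control FPKM of each gene's main transcript in the 3 comparisons (points) with the SE from the deposited statistic (bars). Red marks transcripts called higher, blue called lower, white not called, and the cross CHAC1, which was not tested in shRNA; 9 of 10 are red in SKBR3, 1 of 10 in HCC1954 siRNA and 6 of 9 in shRNA.

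Of all 34 transcript entries of the 10 genes, 20 were tested in SKBR3, of which 12 rose and 0 fell. In HCC1954 siRNA 21 were tested, of which 1 rose and 0 fell, and in shRNA 12 were tested, of which 8 rose and 2 fell. The share over all tested transcript entries was not counted, so these entry counts have no background of their own. By main transcript, 36.3% of all tested genes were called higher and 39.2% lower in shRNA. By main transcript, 4 genes rose in 2 of the comparisons and fell in none (ATF4, ASNS, SLC7A11 and SESN2), and DDIT4 rose in all 3. ATF3, CHAC1, TRIB3 and DDIT3 rose in 1, and PSAT1 rose in 1 and fell in 1.

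Differences between comparisons were tested gene by gene over all genes tested in both tables. Between SKBR3 and HCC1954 siRNA, 2 of 10 genes differed, CHAC1 and SLC7A11, where 0.505% of 8907 genes did. All 10 differences were above 0 (median 0.77 log2 units). The share of all genes with a difference above 0 was not counted. The median log2 ratio of all tested genes was -0.10 in SKBR3 and -0.0039 in HCC1954 siRNA. Between HCC1954 shRNA and HCC1954 siRNA, 3 of 9 differed, ATF4, ASNS and SLC7A11, each with the larger ratio in shRNA, where 13.8% of 8634 genes differed. The ATF4 difference was 1.20 log2 units (95% interval 0.57 to 1.83). Between HCC1954 shRNA and SKBR3 siRNA, 2 of 9 differed, where 26.9% of 8371 genes did. ATF4 had the larger ratio in shRNA, by 0.79 log2 units (0.36 to 1.22), and PSAT1 the smaller. The share of the 10 genes that differed was thus near or below the background in that last contrast. For DDIT4 the intervals were -0.34 to 1.12, -0.70 to 0.69 and -0.83 to 0.04 log2 units, in the order of the contrasts above.

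The levels themselves differed widely between the control groups, although the tables were normalized separately and no test of these differences can be made. All 10 genes were higher in HCC1954 siNT cells than in HCC1954 shNT cells, which carry the same line name. The ratio was 32.4 for CHAC1 (89.6 against 2.76 FPKM), 22.9 for ASNS (192 against 8.38 FPKM), 14.9 for DDIT3, 12.3 for SESN2, 7.09 for SLC7A11, 6.25 for TRIB3, 6.07 for PSAT1, 5.08 for ATF3 and 3.89 for DDIT4. ATF4 itself had the smallest, 1.73 (311 against 180 FPKM). The median log2 ratio of the 10 was 2.73, against -0.04 for 11679 genes with at least 1 FPKM in both groups, and 9 of the 10 were above a log2 ratio of 1, as were 12.6% of those genes. Transfection with siRNA, a stably carried shRNA, clonal origin and table cannot be told apart here.

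**Figure D4:**
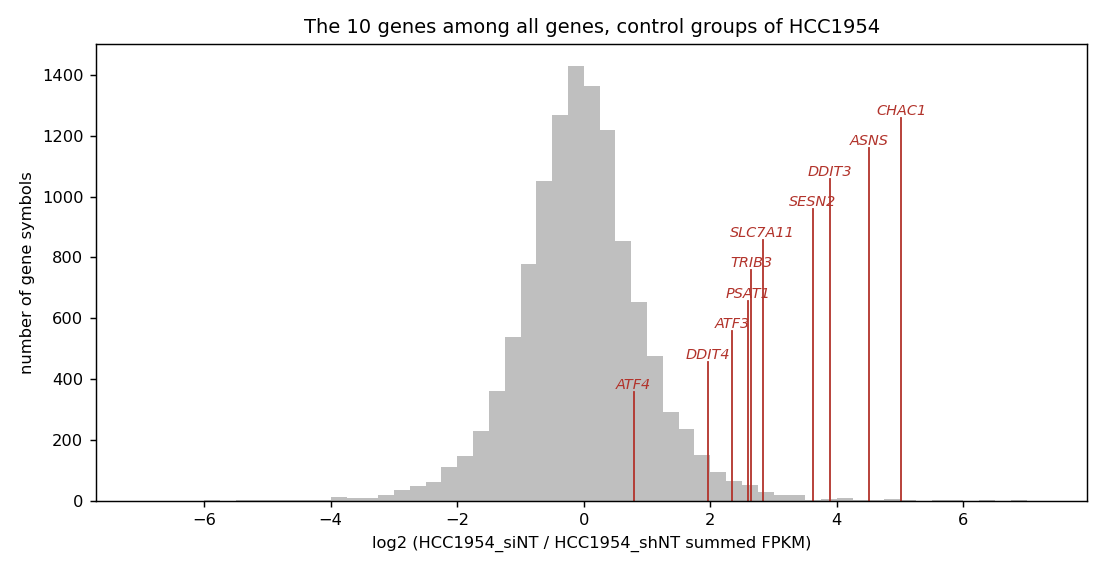
Number of genes (grey bars, with at least 1 FPKM in both groups) by log2 ratio of summed FPKM, HCC1954 siNT over HCC1954 shNT control cells, with the 10 genes as red lines whose height only separates the names. The genes lie from 0.79 (ATF4) to 5.02 (CHAC1), all right of the middle of the grey bars.

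Other lists of the pathway differed in this ratio between the control groups. Of all genes with at least 1 FPKM in both groups, 47.6% had a log2 ratio above 0. Enzymes of amino acid and one-carbon synthesis had a median log2 ratio of 2.17 (10 of 10 above 0), amino acid transporters 1.74 (9 of 10) and cytosolic tRNA synthetases 1.71 (18 of 18). The ATF6 and XBP1 arm of the unfolded protein response had 0.97 (11 of 16) and other reported targets of ATF4 or DDIT3 0.89 (13 of 16). PPP1R15A and PPP1R15B, of the eIF2 phosphatase, and DNAJC3, listed with them, had a median of 0.51 (3 of 3). The eIF2 kinases had 0.54, NRF2 target genes 0.42 and the eIF2 and eIF2B subunits -0.0045 (4 of 8 above 0). The medians were also below 0 for the bZIP partners and co-regulators at -0.39 (3 of 7 above 0) and the paralogs of the 10 genes at -0.56 (1 of 7). The bZIP list was split, since the 3 genes above 0 were all above a log2 ratio of 1. Its highest ratio was 55.5, for NUPR1 (233 against 4.19 FPKM in siNT and shNT cells), above that of each of the 10 genes. HCC1954 siNT cells also held more of all 10 than SKBR3 siNT cells. Of 11038 genes with at least 1 FPKM in both groups, 52.5% were higher in HCC1954 siNT cells. A log2 ratio of 1 was passed by 6 of the 10 and by 18.8% of those genes. The ratio was 16.8 for PSAT1 (455 against 27.1 FPKM), 16.8 for CHAC1, 10.9 for SLC7A11, 10.7 for SESN2, 8.28 for ASNS and 5.00 for DDIT3, and between 1.16 and 1.78 for ATF4, TRIB3, ATF3 and DDIT4. The ratios of the last-named genes exceeded those of 56.4% (ATF4) to 76.9% (DDIT4) of all genes compared.

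The order of the genes by summed FPKM was led by 3 genes in each siRNA group of SKBR3, ATF4, DDIT4 and TRIB3, which made up 29.3%, 29.6% and 20.8% of the set's sum in siAP2C cells against 34.8%, 27.2% and 24.0% in siNT cells. In HCC1954 siRNA cells PSAT1 joined them, with 484 FPKM in siAP2C cells, below DDIT4 alone, and 455 FPKM in siNT cells, above all others. In the clones ATF4 led, with 57.4% of the set's sum in shAP2C cells against 42.3% in shNT cells. SLC7A11 was last in both HCC1954 siRNA groups, in SKBR3 siNT cells and in shNT cells. With no spread for a level, neighbours in these orders cannot be said to differ.

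Upstream of ATF4, 0 eIF2 kinases were called in either siRNA comparison (3 tested in SKBR3, 4 in HCC1954), with 0 in each direction at an unadjusted p under 0.05 in the authors' Cuffdiff test. At the phosphatase that reverses the signal, PPP1R15A, the stress-induced GADD34 subunit, rose in both, with 37.0 against 18.1 FPKM in SKBR3 siAP2C and siNT cells (q = 0.000441) and 98.7 against 69.5 FPKM in HCC1954 siAP2C and siNT cells (q = 0.00773 in the authors' deposited tables). It fell in the clones, with 32.8 FPKM in shAP2C cells against 45.8 FPKM in shNT cells (q = 0.000121 in the authors' deposited table). In the clones 1 of 4 kinases rose, EIF2AK4 (GCN2, the sensor of uncharged tRNA), with 12.1 against 9.07 FPKM in shAP2C and shNT cells, and 2 fell, EIF2AK3 (PERK), with 3.41 against 6.17 FPKM, and EIF2AK2 (PKR, the sensor of double-stranded RNA). The EIF2AK2 call depends on the transcript. The main one fell, with 0.941 against 15.5 FPKM in shAP2C and shNT cells (q = 0.00129), while another rose, with 14.4 against 8.86 FPKM (q = 0.00624 in the authors' deposited table). EIF2AK2, like CEBPG below, was chosen for naming after its values were seen. Of the eIF2 and eIF2B subunits 2 of 7 fell in SKBR3, 0 of 7 were called in HCC1954 siRNA, and 1 of 8 rose and 5 fell in the clones, among them EIF2S3, with 97.0 against 263 FPKM in shAP2C and shNT cells. The SKBR3 share is 28.6%, beside 21.0% of all tested genes called lower there.

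Among bZIP partners and co-regulators, 3 of 7 rose and 0 fell in SKBR3. CEBPD had 109 against 34.2 FPKM in siAP2C and siNT cells, NUPR1, a stress co-regulator, 217 against 58.0 FPKM, and CEBPB 111 against 86.0 FPKM. In HCC1954 siRNA 0 of 7 were called, and 0 in each direction had an unadjusted p under 0.05 in the authors' Cuffdiff test. The median log2 ratio of the list was 0.34 in SKBR3, 0.06 in HCC1954 siRNA and -0.55 in the clones. In the clones 0 of 5 rose and 3 fell, among them CEBPB with 14.1 against 168 FPKM and CEBPD with 6.43 against 60.2 FPKM in shAP2C and shNT cells (q = 0.000121 for each in the authors' deposited table). The main transcript of CEBPG, the third C/EBP gene of the list, was not called in SKBR3, with 8.27 against 7.03 FPKM in siAP2C and siNT cells (q = 0.509), or in the clones, with 12.1 against 10.6 FPKM in shAP2C and shNT cells (q = 0.689 in the authors' deposited tables). That transcript is only a part of the CEBPG signal. Summed over entries, CEBPG had 31.4 against 21.0 FPKM in SKBR3 siAP2C and siNT cells, and 36.2 against 33.7 FPKM in shAP2C and shNT cells. With any tested transcript counted, 5 genes of the list rose in SKBR3, against 3.

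Among enzymes of amino acid and one-carbon synthesis, 3 of 10 rose and 1 fell in SKBR3, 0 of 11 were called in HCC1954 siRNA, and 5 of 9 rose and 1 fell in the clones. PHGDH, the step of serine synthesis before PSAT1, rose in SKBR3 with 28.7 against 14.6 FPKM in siAP2C and siNT cells and was the enzyme that fell in the clones. PYCR1, of proline synthesis, had 104 against 16.9 FPKM in shAP2C and shNT cells, and SHMT2, a mitochondrial one-carbon enzyme, 81.2 against 34.0 FPKM. MTHFD2 rose in both, with 98.9 against 73.2 FPKM in SKBR3 siAP2C and siNT cells and 115 against 85.1 FPKM in shAP2C and shNT cells. Of the cytosolic tRNA synthetases 4 of 17 rose and 2 fell in SKBR3, 0 of 18 were called in HCC1954 siRNA, and 14 of 16 rose and 1 fell in the clones, for example YARS1 with 54.4 against 26.6 FPKM in shAP2C and shNT cells. The synthetase medians were log2 ratios of 0.14 in SKBR3, 0.04 in HCC1954 siRNA and 0.56 in the clones. At an unadjusted p under 0.05 the authors' Cuffdiff test in HCC1954 siRNA had 0 of the synthesis enzymes in each direction, and 1 synthetase higher and 2 lower.

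Amino acid transporters were split, with 3 of 9 that rose and 3 that fell in SKBR3, 2 of 10 that rose in HCC1954 siRNA, and 3 of 7 in each direction in the clones. That is 42.9% each way in the clones, near the 36.3% called higher and 39.2% called lower of all genes there. SLC38A2, a carrier of neutral amino acids, rose in SKBR3 with 36.1 against 19.9 FPKM in siAP2C and siNT cells and in the clones with 94.4 against 30.7 FPKM in shAP2C and shNT cells. SLC3A2, the partner chain of the SLC7A11 importer, rose in HCC1954 siRNA with 810 against 532 FPKM in siAP2C and siNT cells (q = 0.0471 in the authors' deposited table). The main transcript of SLC1A4 rose there as well, with 9.28 against 3.21 FPKM, and fell in SKBR3, with 3.31 against 7.63 FPKM in siAP2C and siNT cells. That transcript is only a part of the SLC1A4 signal. Summed over entries, SLC1A4 had 14.8 against 10.0 FPKM in HCC1954 siAP2C and siNT cells, and 4.41 against 10.6 FPKM in SKBR3.

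Of the other reported targets of ATF4 or DDIT3, 11 of 15 rose and 1 fell in SKBR3, 3 of 14 rose and 0 fell in HCC1954 siRNA, and 7 of 14 rose and 3 fell in the clones. Their median log2 ratios were 0.56, 0.35 and 0.24 in that order. GDF15, a secreted stress cytokine, rose in all 3, with 165 against 11.6 FPKM in SKBR3 siAP2C and siNT cells, 785 against 386 FPKM in HCC1954 siAP2C and siNT cells, and 57.4 against 10.3 FPKM in shAP2C and shNT cells. SQSTM1, an autophagy receptor, had 447 against 198 FPKM in SKBR3 siAP2C and siNT cells. GDF15 and CDKN1A are also targets of p53, so membership of this list does not mark ATF4 alone. The NRF2 list, which shares SLC7A11 with the set, had 8 of 10 that rose and 1 that fell in SKBR3, 1 of 10 that rose in HCC1954 siRNA, and 2 of 10 that rose and 8 that fell in the clones. Its median log2 ratio was 0.79 in SKBR3, 0.16 in HCC1954 siRNA and -0.86 in the clones. SLC7A11 thus rose in the clones beside a fall of GCLM, the regulatory subunit of glutathione synthesis, with 3.60 against 12.7 FPKM in shAP2C and shNT cells.

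The ATF6 and XBP1 arm of the unfolded protein response, a parallel pathway, had 1 of 16 genes that rose and 8 that fell in SKBR3 (median log2 ratio -0.27), where 9 of the 10 ATF4 genes rose. The main transcripts of CRELD2 and HYOU1, both of the endoplasmic reticulum, had 1.91 against 7.44 FPKM and 26.3 against 49.0 FPKM in SKBR3 siAP2C and siNT cells. Summed over entries, CRELD2 had 9.29 against 20.0 FPKM and HYOU1 34.4 against 65.6 FPKM in these cells. In HCC1954 siRNA 2 of 16 rose, and in the clones 6 of 15 rose and 7 fell, with the chaperone HSP90B1 at 240 against 69.9 FPKM and XBP1 at 38.1 against 110 FPKM in shAP2C and shNT cells. The shares in the clones, 40% higher and 46.7% lower, are near the 36.3% and 39.2% of all tested genes there. Among paralogs of the 10 genes, 2 of 5 tested rose in SKBR3 and 2 of 5 in the clones, where TRIB2 fell, and 0 of 4 were called in HCC1954 siRNA. TRIB1 rose in both, with 20.5 against 12.5 FPKM in SKBR3 siAP2C and siNT cells and 110 against 59.1 FPKM in shAP2C and shNT cells. These lists were chosen for the pathway by name, and no test of a list was made. All list counts stand beside the shares of all tested genes called higher and lower. Those were 12.3% and 21.0% in SKBR3, 2.31% and 0.965% in HCC1954 siRNA, and 36.3% and 39.2% in the clones.

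**Figure D5:**
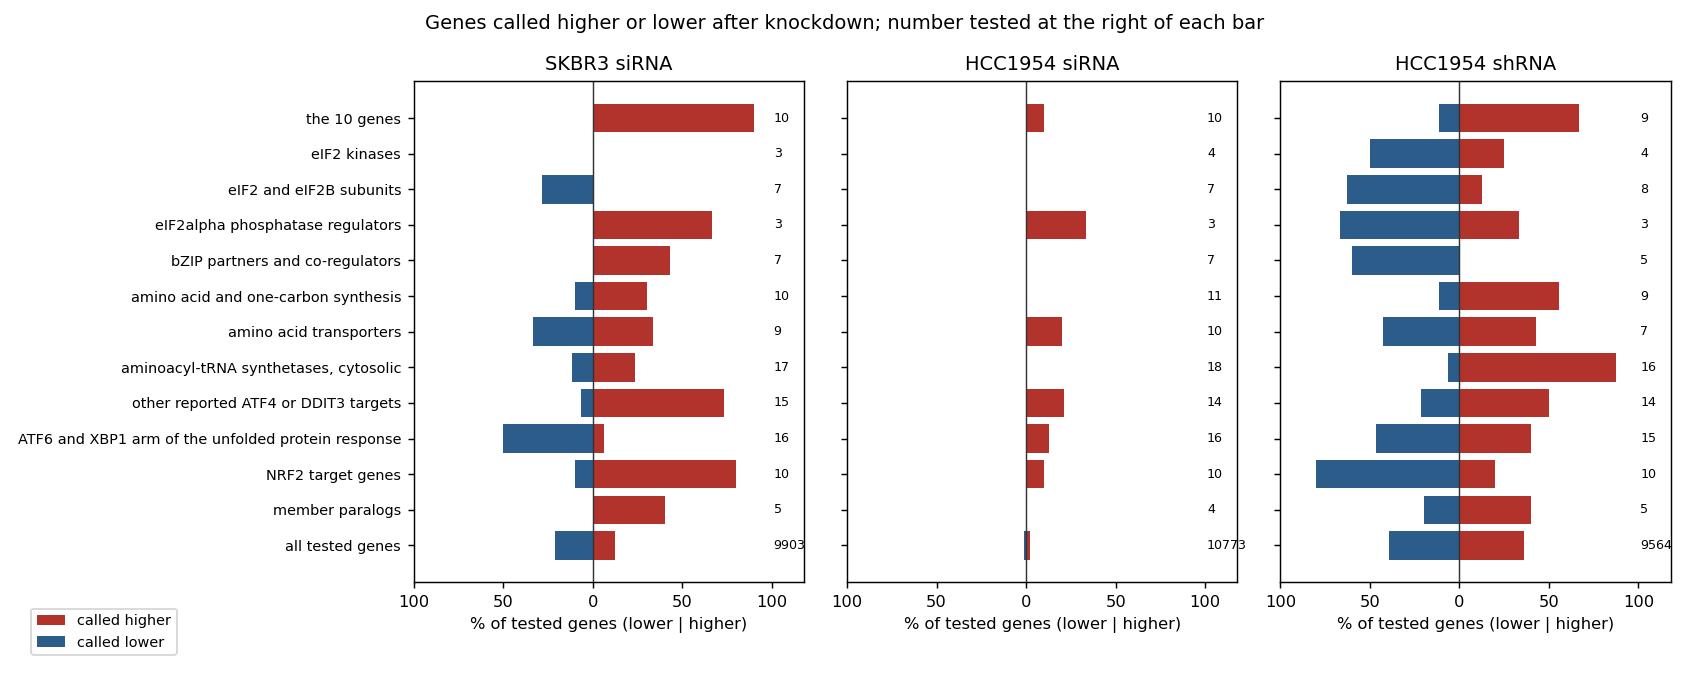
Share of tested genes called higher (red, to the right) or lower (blue, to the left) after knockdown for the 10 genes, each pathway list and all tested genes, with the number tested at the right of each bar. The red bar of the 10 genes is long in SKBR3 and shRNA and short in HCC1954 siRNA, and the bZIP and NRF2 lists point right in SKBR3 and mostly left in shRNA.

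Genes whose pattern of 3 log2 ratios of summed FPKM was most like that of a member were found by Euclidean distance among 10207 genes with at least 1 FPKM in all 6 groups. The genes nearest to the median pattern of the 10 were TRIB1 (distance 0.0992 log2 units), SH3BGRL2 (0.118), TNFRSF21 (0.169), UNKL (0.206) and ZNF558 (0.208). PLEKHG5 (0.0709) was nearest to ATF4, NT5C2 (0.129) to ATF3, TENT4B (0.0335) to TRIB3 and STK24 (0.0694) to PSAT1. CHAC1 and SLC7A11 had no close neighbour. The nearest gene to CHAC1 was PMAIP1 at 0.517 and the third was SLC7A11 at 1.06, and the nearest to SLC7A11 was PHLDA1 at 0.886. With 3 points to a pattern, such likeness is a description.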

How the data were processed

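TruSeq RNA libraries of 24 samples (8 groups of 3) were sequenced, per the labels. The submitters' processing notes name Bowtie 0.12.2, Cuffdiff, of a version not given in the sources used here, with the builds hg19 and GRCh37. The authors computed FPKM, 1 value per entry and group, per the file headers. The test statistic is a score deposited by the authors, and each p-value and q-value is as deposited. No column holds a single sample, so the depth of a sample is not known, no model over samples was possible, and an FPKM carries no interval.

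Of 66321 accessions per table, 65468 were matched to symbols through NCBI RefSeq names (GRCh38.p14) and 853 were not. FPKM was summed per symbol for levels. Tests are those of the main transcript. Log2 ratios carry no pseudocount. Positions are of GRCh37 (GENCODE annotation), promoters of RefSeq. Differences between comparisons were tested two-sided with z, which divides the difference of both log2 ratios by its standard error, with Benjamini-Hochberg adjustment over all genes compared and a threshold of 0.05. This is a normal approximation from pooled values. With no values per sample an exact test was not possible, so its p-values are not printed. Deposited p-values correspond to normal quantiles that in the median are 1.99 (SKBR3 siRNA), 2.46 (HCC1954 siRNA) and 2.88 (HCC1954 shRNA) times the statistic. For genes with a large statistic, such as CHAC1 in SKBR3 and ATF4 in the shRNA clones, the floor of the deposited p-values gives the larger standard error.

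Genes named are the 10 members, TFAP2C, up to 4 called genes per list and comparison (of the largest change with at least 1 FPKM in both groups), and the genes of nearest pattern. Of these some are left out, and a few further genes are given as background to an overlap or as an example. The members and lists were chosen with earlier results of these data known. Python 3.11.15, pandas 2.3.3, numpy 2.4.6 and scipy 1.17.1 were used.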

Additional observations from a re-analysis of the deposited data

Results flagged for a closer look

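Responses to TFAP2C knockdown that differed between comparisons, by the z test on the deposited statistics, are given as the difference of log2 ratios, and each passed the threshold adjusted over all genes compared. SKBR3 siRNA minus HCC1954 siRNA was 2.76 for CHAC1 and 2.24 for SLC7A11. HCC1954 shRNA minus HCC1954 siRNA was 1.20 for ATF4, 2.56 for ASNS and 1.50 for SLC7A11. HCC1954 shRNA minus SKBR3 siRNA was 0.79 for ATF4 and -0.81 for PSAT1. The control levels beside them were 5.34 FPKM in SKBR3 siNT and 89.6 FPKM in HCC1954 siNT cells for CHAC1, and 8.38 FPKM in HCC1954 shNT and 192 FPKM in HCC1954 siNT cells for ASNS. All 10 genes had lower control levels in HCC1954 shNT than in HCC1954 siNT cells. These include ATF3 (9.93 against 50.4 FPKM), TRIB3 (42.8 against 267 FPKM) and PSAT1 (75.0 against 455 FPKM), which did not pass in that contrast. The part of the control level in any of these differences was not tested.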

How the results depend on the processing

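Of the values that answer a comparison, 89 alternatives left direction and call as they were and 10 moved, and none reversed. At a q threshold of 0.01, 0 of the 10 genes were called higher in HCC1954 siRNA (against 1), and 0 were called lower in HCC1954 shRNA (against 1). With any tested transcript counted, 2 were called lower in HCC1954 shRNA. The median log2 ratio of summed FPKM of the 10 genes in HCC1954 shRNA was 1.00, with 1.23 from 1 transcript per gene and 0.82 with a pseudocount of 1. HCC1954 siNT over shNT had a median of 2.73, with 3.09 from 1 transcript per gene and 2.60 with a pseudocount of 1, alternatives chosen after seeing the data. With the standard error taken from the deposited p, 4 genes differed between SKBR3 and HCC1954 siRNA (against 2), 5 between HCC1954 shRNA and HCC1954 siRNA (against 3) and 5 between HCC1954 shRNA and SKBR3 siRNA (against 2). The share of all genes that differed under that standard error is not given here, so these counts have no background. ATF3 and ASNS were added in the first of these contrasts, DDIT3 and SESN2 in the second, and ATF3, TRIB3 and ASNS in the third. The genes that differed before passed under it too. The cause was not tested. With the transcript of highest mean FPKM in the HCC1954 shRNA table itself, 2 eIF2 kinases were called higher and 1 lower there, against 1 and 2. Of the other values, 516 stayed, 15 moved and 7 passed the threshold that had not. No paired analysis was possible because the tables hold 1 pooled value per group, and for the same reason no sample could be left out. Low genes such as CHAC1 in the clones were not tested by the authors, and precision at a given level is unknown.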

Other observations

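PSAT1 signal was split between its 2 transcripts in different ways in the 2 sets of HCC1954 cells. The second transcript held 57.4% and 53.5% of summed FPKM in HCC1954 siAP2C and siNT cells, 8.78% and 3.11% in HCC1954 shAP2C and shNT cells, and 6.85% and 5.77% in SKBR3 siAP2C and siNT cells. The second TRIB3 transcript held 3.99% and 2.30% in HCC1954 siAP2C and siNT cells, 32.6% and 39.0% in shAP2C and shNT cells, and 33.8% and 36.8% in SKBR3 siAP2C and siNT cells. These shares rest on how the authors' tool divided reads among transcripts, and their cause was not tested.

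The table of 68 selected genes for HCC1569, not used above, holds 2 genes of the pathway lists. CDKN1A had 41.0 FPKM in HCC1569 siAP2C cells against 23.2 FPKM in siNT cells (q = 0.00139 in the authors' deposited table). PDIA4, a disulfide isomerase of the endoplasmic reticulum, had 1213 against 936 FPKM in siAP2C and siNT cells (q = 0.349 in the authors' deposited table).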
